A study of Mus musculus with 2 samples.

Results

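10 genes of the cellular response to low oxygen were followed across the endothelial and early blood cells of the mouse embryonic aorta, in a library of SP3-null cells and a library of wild-type cells. They were 10 of the 27514 genes in the deposited count matrix: the oxygen-regulated transcription factor subunits Hif1a and Epas1, the oxygen-sensing hydroxylase Egln3, and the hypoxia-induced genes Slc2a3, Adm, Bnip3, Ankrd37, P4ha1, P4ha2 and Ndrg1. They were found by their gene symbols, and all 10 were in the matrix. Several of them had been picked because they differed between the SP3-null and the wild-type library, so those ratios over all cells are given as a description and support nothing.

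Dorsal aorta tissue was taken at embryonic day 10.5. SP3-null embryos carried the germline Sp3tm1Sus mutation on both alleles and were obtained, like the wild-type embryos, by mating Sp3+/- mice whose mixed background joined C57Bl6/J and B6129SF1/J. SP3 is a zinc finger transcription factor that binds GC-rich promoter sequences, and its loss in the germline reaches every cell type of the embryo and not only endothelium. Cells of each genotype were pooled and sorted as Ter119-, CD41 low or negative, CD31+, CD144+ and ESAM+, and single cells were sequenced from 1 library per genotype. The number and the sexes of the pooled embryos are not given in the sources used here. With 1 library per genotype there was no replicate and no test was possible: genotype, embryo pool and library cannot be told apart, and all intervals are exact 95% intervals that cover counting error only.

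Hypoxia-inducible factors are pairs of an oxygen-regulated alpha subunit and a stable beta subunit. In oxygen, prolyl hydroxylases mark the alpha subunit for destruction through the von Hippel-Lindau protein. When oxygen is short the alpha subunit accumulates, enters the nucleus and binds short DNA motifs. Control is thus largely on the protein, and the RNA of the target genes, among them glucose transporters, glycolytic enzymes, the peptide adrenomedullin and the hydroxylase PHD3 itself, is the usual readout in tissue.

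The deposited annotation placed nearly all cells in 9 classes: Wnt-high and Wnt-low arterial endothelium (AE), conflux AE, pre-hemogenic endothelium (pre-HE), hemogenic endothelium (HE), intra-aortic hematopoietic clusters (IAC), Wnt-high and Wnt-low venous endothelium (VE), and other endothelium. A wild-type cell outside these classes entered the values over all cells but no class. The arterial, conflux, pre-HE and venous classes summed are called the summed endothelial cells below. They held 2401 SP3-null cells with 39445990 unique molecular identifiers (UMIs) and 2639 wild-type cells with 42091263 UMIs, with a median of 14111 UMIs per SP3-null cell and 12978 per wild-type cell. A level is given as CPM, counts per 1e6 UMIs of the same cells. The 8 endothelial markers summed to 3958 CPM in SP3-null and 4004 CPM in wild-type cells of the summed endothelial cells, and the 9 macrophage markers to 23 and 26 UMIs, with Adgre1 at 0. Neural markers summed to 211 CPM in SP3-null and 261 CPM in wild-type cells. Most of that was Nes (136 CPM in SP3-null and 140 CPM in wild-type cells) and Stmn2 (73.6 and 119 CPM). Sox2, Tubb3, Elavl3 and Dcx had too few UMIs to be called. Erythroid markers summed to 57.7 CPM in SP3-null and 64.0 CPM in wild-type cells, with 4 of 5 testable globin genes called lower in SP3-null cells and Hbb-y at 0.17 on the log2 scale. The 8 stress markers summed to 555 CPM in SP3-null and 582 CPM in wild-type cells, with Fos (-0.51) and Egr1 (-0.79) called lower, and the 6 epithelial markers to 42 and 128 UMIs, with Krt18 (-1.91) and Epcam (-1.13) called lower. Their part in the results was not tested. The libraries shared 5 cell barcodes. Sp3 RNA was at 35.6 CPM in SP3-null and 46.3 CPM in wild-type cells, a log2 ratio of -0.38; the sources used here do not say whether the sequenced end of the transcript lies in the disrupted part, so this level does not check the label.

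Across the summed endothelial cells, 5 of the 10 genes were called higher in the SP3-null library (Slc2a3, Adm, Ankrd37, Bnip3 and Egln3) and 1 was called lower (P4ha2). A call was a log2 ratio of at least 0.32 in size, a ratio of 5 to 4, with its interval on one side of 0, among genes with at least 50 UMIs. Of all 11814 genes that could be called, 3.24% were higher and 7.44% lower by the same rule; since the genes were picked from these ratios, nothing is read from the comparison of the shares. Just inside the threshold lay Egln3 and Bnip3, with log2 ratios of 0.36 and 0.37, and just outside it lay P4ha1 with 0.25. Hif1a and Epas1 had log2 ratios of -0.09 and -0.04.

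The differences of the induced genes were not spread over all cells of the SP3-null library. They were found in cells with RNA from the Y chromosome and in cells where neither Y-linked nor Xist RNA was detected. In cells with Xist RNA, made by the inactive X, the ratios of Slc2a3, P4ha1 and Ankrd37 were close to 0, those of Bnip3 and Egln3 were below 0 and that of Adm was smaller but still called. This split was made after seeing the data: cells with at least 1 UMI of Ddx3y, Eif2s3y, Uty or Kdm5d and no Xist UMI were set apart from cells with at least 1 Xist UMI and none of those. Among the summed endothelial cells, 887 SP3-null cells (36.9%) and 896 wild-type cells (34.0%) had Y-linked RNA only, and 1005 SP3-null cells (41.9%) and 926 wild-type cells (35.1%) had Xist RNA only. A further 460 SP3-null and 773 wild-type cells had neither, and 49 SP3-null and 44 wild-type cells had both. Depth was alike: the median was 16885 UMIs per SP3-null cell and 16777 per wild-type cell with Y-linked RNA, and 15166 per SP3-null cell and 14085 per wild-type cell with Xist RNA.

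In cells with Y-linked RNA, Slc2a3 was at 28.1 CPM in the SP3-null library and 5.34 CPM in the wild-type library, a log2 ratio of 2.40 (2.07 to 2.74). In cells with Xist RNA it was at 7.90 CPM in the SP3-null library and 7.97 CPM in the wild-type library, a log2 ratio of -0.01 (-0.38 to 0.35). Of these 4 sets, the SP3-null cells with Y-linked RNA stood apart from the other 3. By the rule above, 6 of the 10 genes were higher in SP3-null cells with Y-linked RNA (Slc2a3, Adm, Bnip3, P4ha1, Egln3 and Ankrd37) and 1 was lower (P4ha2), beside 3.16% higher and 7.37% lower of all 10788 genes. In cells with Xist RNA, 1 of the 10 was higher (Adm) and 2 were lower (Bnip3 and P4ha2), beside 3.72% higher and 5.61% lower of all 10762 genes. Both counts divide the contrast from which the genes were picked and are a description.

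**Figure D1:**
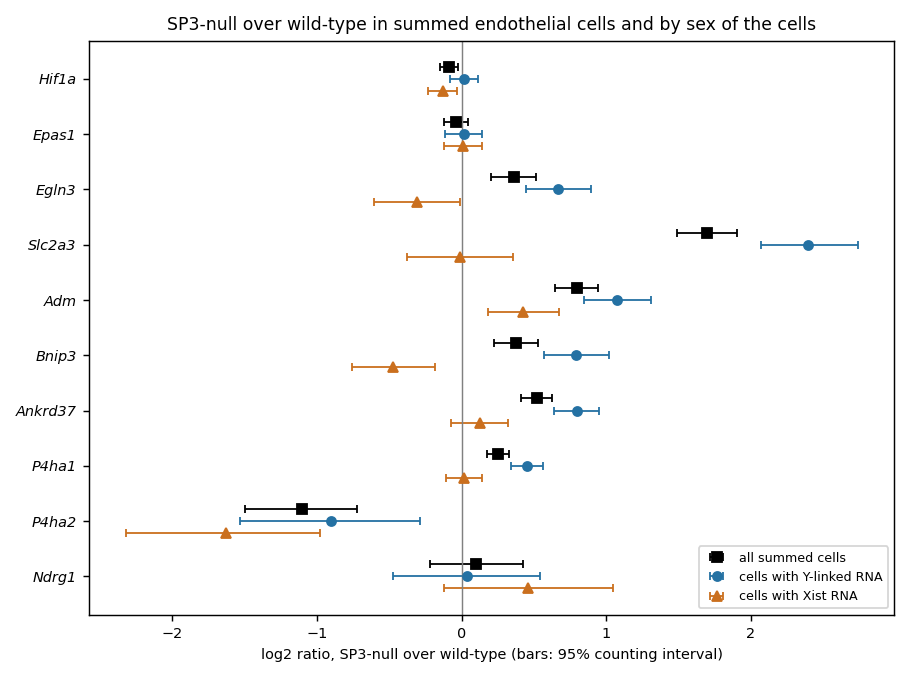
Log2 ratio of SP3-null over wild-type level for each of the 10 genes (rows) in all summed endothelial cells (squares), in those with Y-linked RNA (circles) and in those with Xist RNA (triangles), with 95% counting intervals. Slc2a3 lies at 2.40 in cells with Y-linked RNA and at -0.01 in cells with Xist RNA, and Hif1a and Epas1 lie near 0 in both.

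Cells with Y-linked and with Xist RNA were also compared within each library. The SP3-null counts are those from which the genes and the split were chosen, so this too is a description. In the SP3-null library, 6 of the 10 genes were higher in cells with Y-linked than in cells with Xist RNA, beside 2.73% of all 10746 genes. The log2 differences were 1.83 for Slc2a3, 1.32 for Bnip3, 1.26 for Egln3, 0.98 for Ankrd37, 0.53 for Adm and 0.50 for P4ha1. In the wild-type library none of the 10 was higher by that rule, beside 1.78% of all 10753 genes, and Slc2a3 was lower in cells with Y-linked RNA, by -0.58 (-0.99 to -0.17). Ankrd37 and Egln3 were at 0.31 and 0.28 there, under that limit. Since cells of each genotype were pooled, the sex of an embryo, its litter and the single embryo cannot be told apart, and their part in these differences was not tested.

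Cells with neither kind of RNA, which were shallower, with a median of 8117 UMIs in SP3-null and 8762 in wild-type cells, had log2 ratios of 2.75 for Slc2a3, 0.85 for Adm, 0.78 for Bnip3 and 0.59 for Egln3. Among cells with at least 5000 UMIs the log2 ratio of Slc2a3 was 2.40 with Y-linked RNA and -0.08 with Xist RNA, and that of Bnip3 was 0.78 and -0.45. The contrast was thus as large among these deeper cells. Sp3 RNA itself had a log2 ratio of -0.50 in cells with Y-linked RNA (33.4 CPM in SP3-null and 47.2 CPM in wild-type cells) and of -0.16 in cells with Xist RNA (40.2 CPM in SP3-null and 44.95 CPM in wild-type cells).

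Hif1a (chr12:73901324-73947554), which encodes HIF-1alpha, had a nearly even level. In the summed endothelial cells it was at 96.9 CPM in SP3-null and 102.8 CPM in wild-type cells, and the highest of the 9 classes was 1.39 times the lowest in the SP3-null library and 1.36 times in the wild-type library. It had a UMI in 67.1% of SP3-null cells and 66.8% of wild-type cells. The log2 ratio was 0.01 (-0.08 to 0.11) in cells with Y-linked RNA and -0.13 (-0.23 to -0.03) in cells with Xist RNA, both too small to be called. The class furthest from 0 was conflux AE, with 87.0 CPM in SP3-null and 115 CPM in wild-type cells and a log2 ratio of -0.40 (-0.72 to -0.09).

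Epas1 (chr17:86753864-86833410) encodes HIF-2alpha, which is abundant in vascular endothelium. It was at 57.6 CPM in SP3-null and 59.2 CPM in wild-type cells, with log2 ratios of 0.01 in both sets of cells split by Y-linked and Xist RNA. Its level changed with the class far more than with the library. It was highest in conflux AE (179 CPM in SP3-null and 158 CPM in wild-type cells) and pre-HE (159 and 186 CPM in SP3-null and wild-type cells). It was at 31.3 CPM in SP3-null and 45.3 CPM in wild-type HE. In IAC it was at 3.16 CPM in SP3-null and 4.74 CPM in wild-type cells. Along the path from artery to blood cluster Epas1 thus rose into conflux AE and was nearly lost in the clusters: conflux AE was above AE by 1.26 and 1.13 on the log2 scale in the SP3-null and wild-type libraries, HE below pre-HE by -2.35 and -2.04, and IAC below HE by -3.31 and -3.26.

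Egln3 (chr12:54178981-54203874) encodes PHD3, a prolyl hydroxylase that acts on the HIF alpha subunits and is itself induced by hypoxia. In the summed endothelial cells it was at 18.9 CPM in SP3-null and 14.7 CPM in wild-type cells. In cells with Y-linked RNA it was at 25.5 CPM in SP3-null and 16.1 CPM in wild-type cells, a log2 ratio of 0.67 (0.44 to 0.89). With Xist RNA it was at 10.7 CPM in SP3-null and 13.3 CPM in wild-type cells, a log2 ratio of -0.31 (-0.61 to -0.01) that was too small to be called. Wnt-low AE with Y-linked RNA showed the widest gap, with 44.0 CPM in SP3-null and 18.9 CPM in wild-type cells. By class, Egln3 was highest in IAC, at 37.0 CPM in SP3-null and 40.6 CPM in wild-type cells, 1.24 and 1.60 above HE on the log2 scale in those libraries. IAC also held macrophage markers, at 329 CPM in SP3-null and 259 CPM in wild-type cells, and megakaryocyte markers, at 36.2 and 49.3 CPM. Their part in the IAC levels was not tested. Egln3 was low in the Wnt-high classes: Wnt-high AE was below Wnt-low AE by -1.41 in the SP3-null and -1.13 in the wild-type library, and Wnt-high VE below Wnt-low VE by -1.65 and -1.11.

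The induced genes were then set beside their promoter sequences. The 250 bases before each RefSeq start (GRCm38.p6) were searched on both strands for ACGTG and GCGTG, the 2 forms of the HIF core motif; ACGTG is also part of CACGTG, which other factors bind. A window was found for 7 of the 10 genes; those of Hif1a, P4ha1 and Ankrd37 reach into or lie within the annotated gene span, and the start used for Hif1a was not found in the transcripts it was checked against. All 7 held at least 1 match, against 38.6% of 32851 windows, and 6 held at least 2 matches, against 16.7% of windows. Of the 4 windows outside a gene span, 4 held at least 1 match and 3 held at least 2. ACGTG was in 16.6% and GCGTG in 28.2% of windows. Bnip3 had 5 matches, Ankrd37 4, P4ha1, P4ha2 and Hif1a 3 each, Adm 2 and Egln3 1. Matches were counted per strand, so a CACGTG gave 2 of them. That was so in Bnip3 (first bases -108 and -107) and Hif1a (-135 and -134), and it enters the share of windows with at least 2 matches. GC content was 50.8% to 72.4% in the 7 windows. It was not computed for the other windows, and both motifs hold a CG, so its part in the difference of the shares was not tested. A match is a run of letters and not a shown binding site. Stretches with matches are printed for Adm and Bnip3, which moved with the Y-linked split, for P4ha1, which moved less, and for its paralog P4ha2, which went the other way; capitals mark each match on either strand (CACGC and CACGT are the motifs read from the other strand).
Adm, chr7:110627547-110627656, plus strand: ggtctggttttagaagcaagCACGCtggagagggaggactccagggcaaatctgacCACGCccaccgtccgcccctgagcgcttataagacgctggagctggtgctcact
Bnip3, chr7:138909507-138909646, minus strand: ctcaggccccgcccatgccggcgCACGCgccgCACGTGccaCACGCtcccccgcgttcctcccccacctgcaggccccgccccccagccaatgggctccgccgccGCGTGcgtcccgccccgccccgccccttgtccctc
P4ha1, chr10:59323106-59323196, plus strand: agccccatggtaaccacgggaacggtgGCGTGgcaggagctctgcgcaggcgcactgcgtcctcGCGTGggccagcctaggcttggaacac
P4ha2, chr11:54100794-54100923, plus strand: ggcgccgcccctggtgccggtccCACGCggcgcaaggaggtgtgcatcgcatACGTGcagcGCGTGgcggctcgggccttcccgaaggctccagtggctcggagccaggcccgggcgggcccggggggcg
The third match of P4ha1 (first base -16) lies nearer the RefSeq start used, inside the annotated gene span, and is not in the printed stretch. P4ha2, the gene that was lower in the SP3-null library, held as many matches in its window as P4ha1, which was not.

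Slc2a3 (chr6:122727809-122802363) encodes the glucose transporter GLUT3, which takes up glucose at low concentrations. It overlaps the pseudogene Gm4482, as Bnip3 does the pseudogene Gm18258, Adm the noncoding Gm28863 and Hif1a the noncoding Gm15283, and the counting could have left out or split reads between the partners. Split by class, the log2 ratio with Y-linked RNA was 2.47 in Wnt-high AE (33.4 CPM in SP3-null and 6.02 CPM in wild-type cells), 2.60 in Wnt-low AE (47.4 CPM in SP3-null and 7.82 CPM in wild-type cells), and 1.96 in conflux AE. It was 2.57 in Wnt-high VE, 2.64 in Wnt-low VE and 2.33 in other endothelium. All 6 of these intervals lay above 0, in arteries and in veins. In pre-HE with Y-linked RNA the interval included 0 (log2 ratio 1.21, -0.33 to 2.84), and in IAC with Y-linked RNA Slc2a3 was at 39.5 CPM in SP3-null and 40.7 CPM in wild-type cells.

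Cells with Xist RNA gave no common direction for Slc2a3. The log2 ratio was -1.04 (-2.04 to -0.13) in Wnt-low AE, with 6.75 CPM in SP3-null and 13.9 CPM in wild-type cells. It was 0.67 (0.18 to 1.17) in other endothelium, with 6.95 CPM in SP3-null and 4.36 CPM in wild-type cells. Of 7 classes with at least 30 such cells in each library, the interval was above 0 in 2 and below 0 in 1; with Y-linked RNA it was above 0 in 6 of 8 classes. HE could not be split, since each set there held too few cells, and over all HE cells Slc2a3 was at 56.9 CPM in SP3-null and 36.4 CPM in wild-type cells (log2 ratio 0.64, 0.02 to 1.27).

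**Figure D2:**
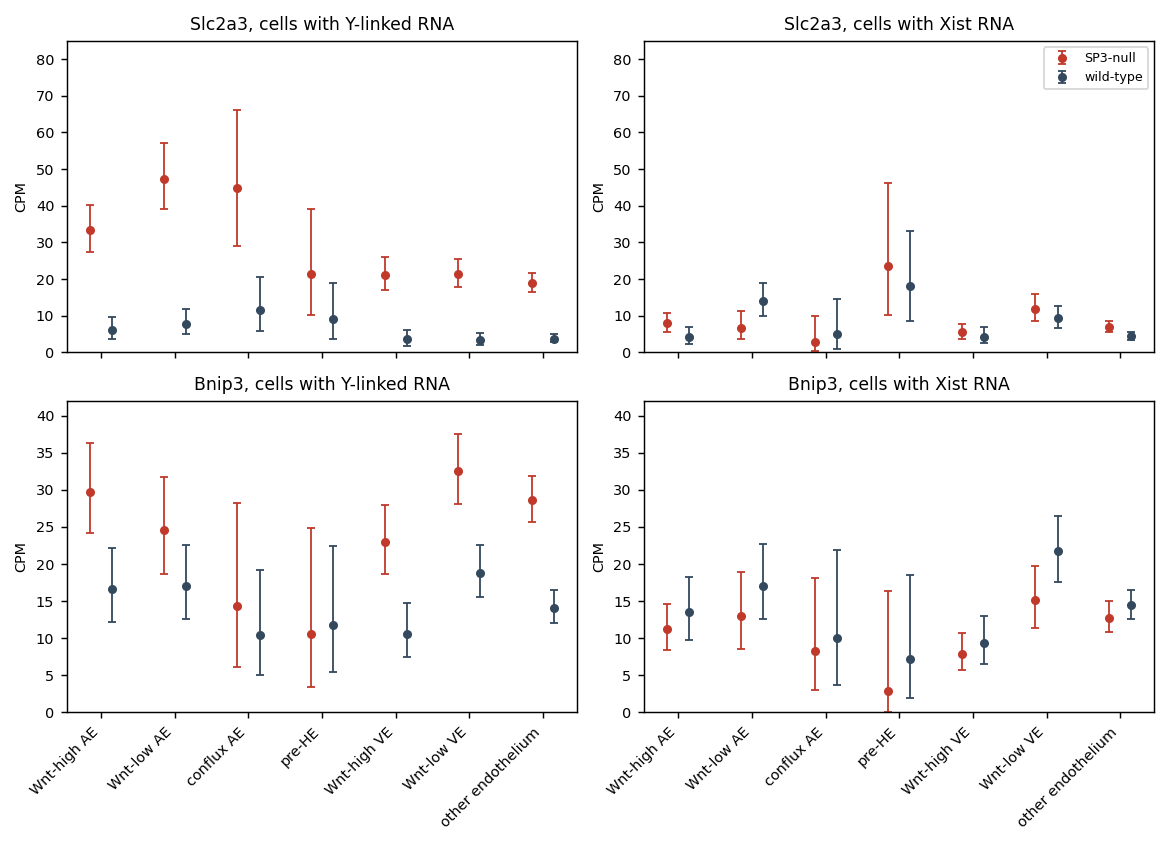
Levels of Slc2a3 and Bnip3 in CPM in 7 classes, for cells with Y-linked RNA and cells with Xist RNA, SP3-null (left point of each pair) beside wild-type, with 95% counting intervals. Slc2a3 in Wnt-low AE with Y-linked RNA lies at 47.4 CPM in SP3-null and 7.82 CPM in wild-type cells, and with Xist RNA at 6.75 CPM in SP3-null and 13.9 CPM in wild-type cells.

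The higher Slc2a3 level lay in more cells and in more UMIs per cell. In the summed endothelial cells 397 of 2401 SP3-null cells (16.5%) and 201 of 2639 wild-type cells (7.62%) had a Slc2a3 UMI. With each cell thinned to 5000 UMIs the shares were 171 of 2076 SP3-null cells (8.24%) and 56 of 2175 wild-type cells (2.57%). At least 5 UMIs were found in 31 SP3-null and 2 wild-type cells, and the 10 cells with most held 14.4% of the SP3-null and 16.2% of the wild-type UMIs, so the level did not rest on a few cells. In cells with Y-linked RNA the share with a UMI was 24.4% in SP3-null and 8.04% in wild-type cells, and in cells with Xist RNA it was 9.35% and 9.50% in SP3-null and wild-type cells. Free RNA was not measured, and its part in these shares was not tested. Epas1, nearly lost in IAC, had a UMI in 9.35% of SP3-null and 13.3% of wild-type IAC cells. Their medians were 30343 and 31009 UMIs, and after thinning the shares were 1.94% and 3.17%. Over all wild-type cells Epas1 was at 39.8 CPM and Slc2a3 at 7.41 CPM, so the Epas1 share sets no low end for Slc2a3.

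Adm (chr7:110627657-110629820) encodes adrenomedullin, a vasodilating peptide that acts on endothelium through the receptor Calcrl with Ramp2 or Ramp3. Adm was highest in Wnt-high AE, at 59.7 CPM in SP3-null and 41.2 CPM in wild-type cells, and was at 26.9 and 17.98 CPM in Wnt-low AE. Wnt-high VE, at 14.4 CPM in SP3-null and 10.5 CPM in wild-type cells, was above conflux AE (10.1 and 4.23 CPM) and pre-HE (6.73 and 0.651 CPM). IAC held 1 UMI in SP3-null and 0 UMIs in wild-type cells, whose interval reaches 0.875 CPM. In cells with Y-linked RNA Adm was at 29.1 CPM in SP3-null and 13.8 CPM in wild-type cells (log2 ratio 1.08, 0.85 to 1.31). With Xist RNA it was at 20.2 CPM in SP3-null and 15.03 CPM in wild-type cells (0.43, 0.18 to 0.67). The class content of the Xist cells differed: 316 SP3-null and 191 wild-type cells were Wnt-high AE, where the log2 ratio of Adm was 0.49 (0.16 to 0.84), and 132 SP3-null and 179 wild-type cells were Wnt-low AE, where it was -0.83 (-1.54 to -0.16). Wnt-low AE with Y-linked RNA went the other way, with 41.0 CPM in SP3-null and 14.2 CPM in wild-type cells, and for Adm 7 of 8 classes with Y-linked RNA had an interval above 0. Among the receptor genes over the summed endothelial cells, Ramp3 had a log2 ratio of 0.40, Ramp2 of 0.15 and Calcrl of -0.21 (-0.27 to -0.15), the last 2 too small to be called.

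Bnip3 (chr7:138890836-138909506) encodes a mitochondrial protein of the outer membrane that takes part in mitophagy. Its direction turned with the split. In cells with Y-linked RNA it was at 27.2 CPM in SP3-null and 15.7 CPM in wild-type cells, a log2 ratio of 0.79 (0.57 to 1.02). With Xist RNA it was at 10.9 CPM in SP3-null and 15.2 CPM in wild-type cells, a log2 ratio of -0.47 (-0.76 to -0.19). The wild-type level was thus nearly the same in both sets of cells, and the SP3-null levels lay on either side of it. In Wnt-low VE the log2 ratio was 0.79 (0.45 to 1.14) with Y-linked RNA and -0.52 (-1.03 to -0.02) with Xist RNA.

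Ankrd37 (chr8:45996908-46000414), which encodes an ankyrin repeat protein and overlaps Ufsp2, was at 55.4 CPM in SP3-null and 31.9 CPM in wild-type cells with Y-linked RNA (log2 ratio 0.80, 0.64 to 0.95). With Xist RNA it was at 28.2 CPM in SP3-null and 25.8 CPM in wild-type cells (0.13, -0.07 to 0.32). Intervals were above 0 in 7 of 8 classes with Y-linked RNA, the exception being conflux AE (log2 ratio -0.32, with an upper bound of 0.33). Ankrd37 was also the only one of the 10 called between conflux AE and pre-HE: pre-HE was lower by -0.64 in the SP3-null and -1.71 in the wild-type library.

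P4ha1 and P4ha2 encode catalytic subunits of collagen prolyl 4-hydroxylase, which makes the hydroxyproline that holds the collagen helix together. P4ha1 (chr10:59323197-59373304) was at 94.3 CPM in SP3-null and 68.8 CPM in wild-type cells with Y-linked RNA (log2 ratio 0.45, 0.34 to 0.56). With Xist RNA it was at 66.6 CPM in SP3-null and 65.8 CPM in wild-type cells (0.02, -0.11 to 0.14). P4ha1 thus kept the pattern of the induced genes at a smaller size. P4ha2 (chr11:54100924-54131668) did not share it, and was lower in the SP3-null library in both sets, at 2.10 CPM in SP3-null and 3.91 CPM in wild-type cells with Y-linked RNA and 1.60 and 4.97 CPM in SP3-null and wild-type cells with Xist RNA. Its log2 ratios were -0.90 (-1.53 to -0.29) and -1.63 (-2.32 to -0.98).

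The counts behind P4ha2 were small, 82 UMIs in SP3-null and 188 UMIs in wild-type summed endothelial cells, and among the summed classes the ratio was furthest from 0 in pre-HE (3 SP3-null and 23 wild-type UMIs, 3.37 and 14.96 CPM) and conflux AE (3 and 16 UMIs, 2.02 and 7.51 CPM). In pre-HE the 7 neural markers also moved, at 585 CPM in SP3-null and 923 CPM in wild-type cells with Sox2, Tubb3, Elavl3 and Dcx at 0, and the 6 epithelial markers were at 17 UMIs in SP3-null and 73 UMIs in wild-type cells. Their part in the P4ha2 difference was not tested. Ndrg1 (chr15:66929318-66969641), a stress-responsive gene of the same response, did not differ beyond its interval, with 4.16 CPM in SP3-null and 3.87 CPM in wild-type cells (log2 ratio 0.10, -0.22 to 0.42). It was at 4.07 CPM in SP3-null and 3.97 CPM in wild-type cells with Y-linked RNA and at 3.86 and 2.81 CPM in SP3-null and wild-type cells with Xist RNA.

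**Figure D3:**
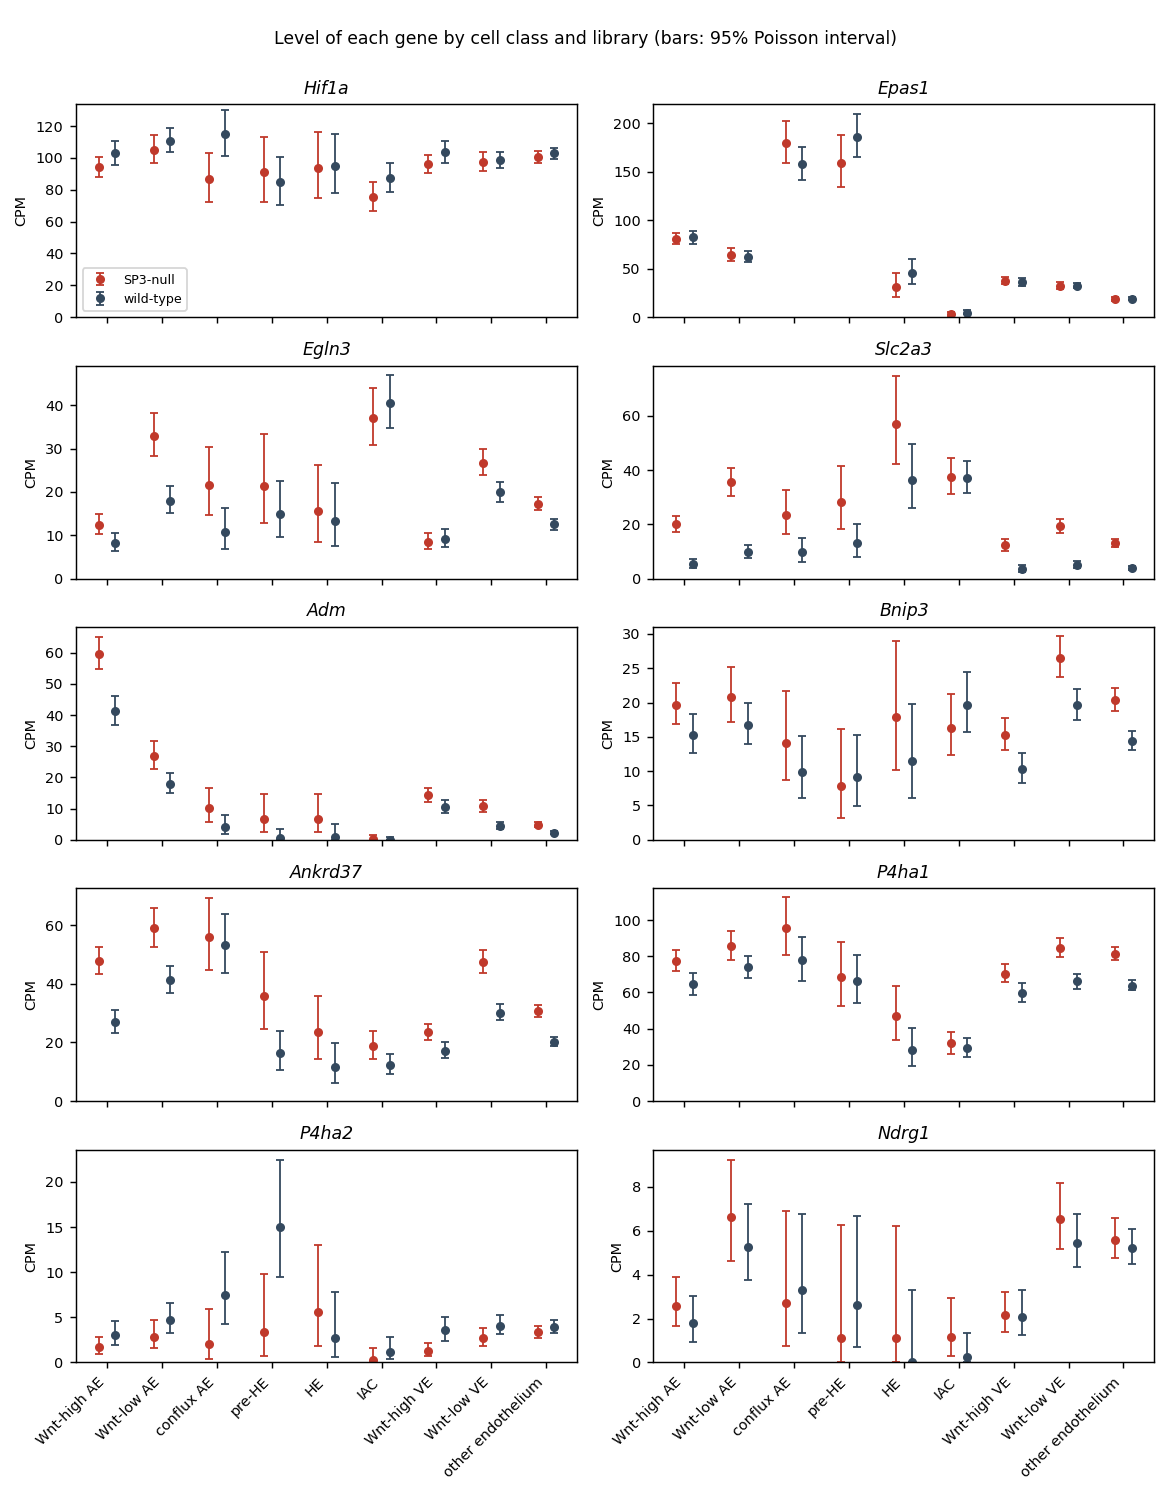
Level in CPM of each of the 10 genes in the 9 classes, SP3-null beside wild-type, with 95% counting intervals. Epas1 falls to 3.16 CPM in SP3-null and 4.74 CPM in wild-type IAC, Adm peaks in Wnt-high AE and Egln3 in IAC, and Hif1a stays within 1.39 times across classes.

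Whether the induced genes were found together in single cells was asked by comparing cells with and without a Slc2a3 UMI within each library, a split also made after seeing the data. In the SP3-null library, 6 of the 9 other genes were higher in the cells with a Slc2a3 UMI (Adm, Bnip3, P4ha1, P4ha2, Egln3 and Ankrd37), beside 3.26% of all 10929 genes. In the wild-type library 4 of the 9 were higher (Adm, P4ha2, Egln3 and Ankrd37), beside 3.1% of all 11043 genes. Neither Hif1a nor Epas1 was among them in either library. In SP3-null cells Adm was at 49.3 CPM in the 397 cells with and 18.7 CPM in the 2004 cells without a Slc2a3 UMI. Bnip3 was at 39.8 CPM with and 15.3 CPM without, a log2 difference of 1.38 in the SP3-null library; in the wild-type library it was at 18.5 and 15.2 CPM with and without, a log2 difference of 0.28 whose interval included 0.

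Setting the cells with a Slc2a3 UMI beside cells without one of the same class moved these values little. Class-matched log2 differences in the SP3-null library were 1.47 for Adm, 1.31 for Bnip3, 1.04 for Egln3 and 0.76 for Ankrd37, and in the wild-type library 1.16, 0.30, 0.64 and 0.47 for the same genes. The cells with a Slc2a3 UMI were deeper, with medians of 17284 UMIs with and 13596 without in the SP3-null library and 19526 with and 12544 without in the wild-type library. In the SP3-null library they also had less Xist RNA, 258 CPM with and 478 CPM without, and more Y-linked RNA, 96.8 CPM with and 60.4 CPM without. The association was therefore also taken within each set of cells. With Y-linked RNA the SP3-null log2 differences were 1.59 for Adm, 1.096 for Bnip3 and 0.99 for Egln3, and with Xist RNA they were 1.11, 1.01 and 0.75. Wild-type cells gave 1.40 for Adm, -0.30 for Bnip3 and 0.83 for Egln3 with Y-linked RNA, and 0.81, 0.56 and 0.66 with Xist RNA. Adm and Egln3 thus accompanied Slc2a3 in all 4 sets, with intervals above 0 in each, while Bnip3 in wild-type cells with Y-linked RNA did not (-1.004 to 0.33). Ankrd37 was at 0.75 in SP3-null cells with Y-linked RNA and 0.73 in wild-type cells with Xist RNA, but at 0.06 (-0.36 to 0.46) in SP3-null cells with Xist RNA and 0.20 (-0.21 to 0.58) in wild-type cells with Y-linked RNA. In SP3-null cells 3 of 8 testable genes were called higher with Xist RNA (94 cells with a Slc2a3 UMI) and 6 of 8 with Y-linked RNA (216 cells). In wild-type cells 5 of 8 were called higher with Xist RNA and 4 of 9 with Y-linked RNA. The share over all genes was not computed within these sets, so nothing is read from the counts.

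**Figure D4:**
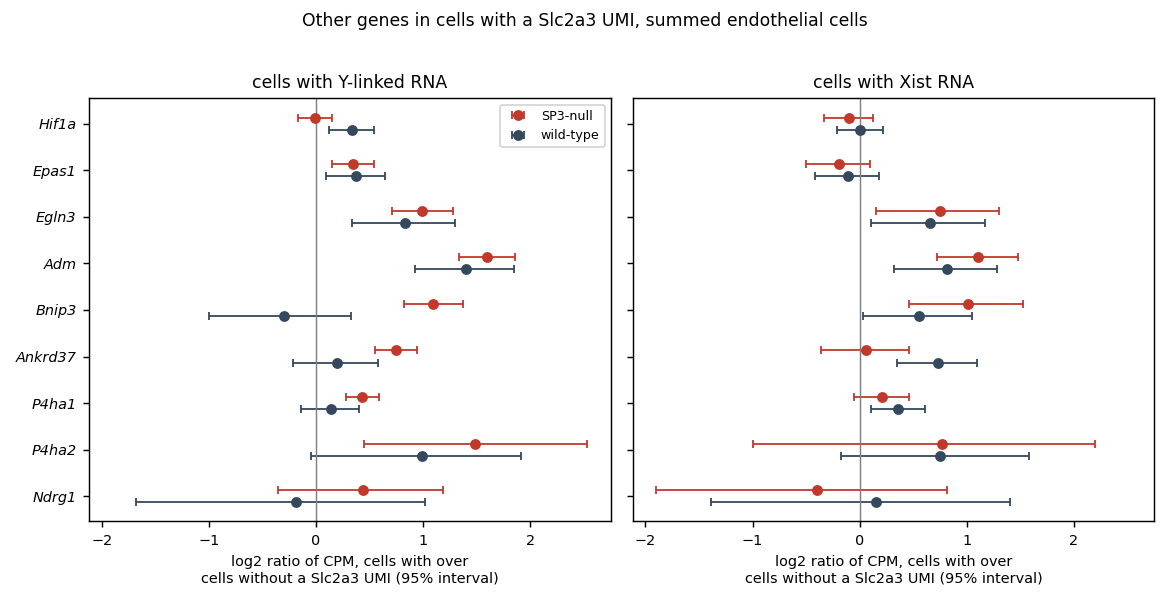
Log2 difference in level between cells with and cells without a Slc2a3 UMI for the 9 other genes, in cells with Y-linked RNA and cells with Xist RNA, SP3-null above wild-type, points with 95% counting intervals. Adm and Egln3 lie above 0 in all 4 sets, and Bnip3 lies at 1.096 in SP3-null and -0.30 in wild-type cells with Y-linked RNA.

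Cells holding several induced genes were counted after thinning each cell to 5000 UMIs. At least 3 of the 8 genes other than Hif1a and Epas1 had a UMI in 154 of 2076 SP3-null cells (7.42%) and in 56 of 2175 wild-type cells (2.57%). At least 4 had one in 50 SP3-null cells (2.41%) and in 5 wild-type cells (0.230%). At least 3 were found in 86 of 826 SP3-null cells (10.4%) and 20 of 818 wild-type cells (2.44%) with Y-linked RNA, and in 29 of 867 SP3-null cells (3.34%) and 17 of 750 wild-type cells (2.27%) with Xist RNA. Cells with neither kind of RNA were like the Y-linked set, with 34 of 336 SP3-null cells (10.1%) and 14 of 563 wild-type cells (2.49%). Several of these genes were picked for their difference between the libraries, so the counts are a description. The share expected from the detection of each gene alone was not computed, so nothing is read from them about genes found together.

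The other genes of the pathway were taken from a list of 84 that holds the pathway by role; like the 10 genes, it was drawn up with earlier results of these data known. Of the 76 that could be called over the summed endothelial cells, 10 were higher and 1 was lower in the SP3-null library, and the median log2 ratio was 0.048, against -0.02 over all genes. With Y-linked RNA 17 of 72 were higher and 2 were lower, with a median of 0.11, beside 3.16% higher and 7.37% lower of all genes. With Xist RNA 4 of 72 were higher and 4 were lower, with a median of -0.0015, beside 3.72% higher and 5.61% lower of all genes. The medians over all genes were -0.02 in both sets. More of the list was thus higher with Y-linked than with Xist RNA.

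Glucose uptake and glycolysis was the largest group of the list. With Y-linked RNA 15 of its 18 genes had a ratio above 0 and 8 were called higher, and with Xist RNA 5 of 18 were above 0 and 1 was called higher. Over all genes 44.0% were above 0 and 3.16% were called higher with Y-linked RNA, and 43.6% and 3.72% with Xist RNA. Ldha, which converts pyruvate to lactate, was at 1170 CPM in SP3-null and 826.9 CPM in wild-type cells with Y-linked RNA, and at 882 and 879.6 CPM in SP3-null and wild-type cells with Xist RNA. The glycolytic kinase Pgk1 had log2 ratios of 0.33 with Y-linked RNA and -0.13 with Xist RNA. Pdk1, which holds pyruvate back from mitochondria, had 0.71 (0.57 to 0.85) and 0.21 (0.06 to 0.36), and was among the 8 called higher with Y-linked RNA. It lies at chr2:71873215-71903858, near Sp3 at chr2:72936430-72980446. The part of this position in the Pdk1 ratios was not tested. The major endothelial glucose transporter Slc2a1 did not follow the split: it was higher in SP3-null cells with Y-linked RNA (330 CPM in SP3-null and 264 CPM in wild-type cells, log2 ratio 0.33) and with Xist RNA (380 CPM in SP3-null and 273 CPM in wild-type cells, 0.48). Tfrc, the transferrin receptor, was also higher with Xist RNA, at 88.2 CPM in SP3-null and 59.9 CPM in wild-type cells.

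In the remaining groups over the summed endothelial cells 0 to 2 genes per group were called higher. These groups held 5 to 15 testable genes, and 3.24% of all genes were called higher. All 7 testable mitochondria and survival genes had a ratio above 0, with a median of 0.26, against 0.16 for glycolysis. With Y-linked RNA 7 of these 7 were above 0 and 3 were called higher (median 0.29). With Xist RNA 5 of 7 were above 0, 1 was called higher and 1 lower (median 0.06). None of 14 oxygen-sensing and HIF partner genes was called; their extremes were Cited2, a competitor of HIF for its coactivator, at 0.19, and the beta subunit Arnt at -0.17, and the most abundant, the chaperone Hsp90ab1, was at -0.04. Of the mitochondria and survival genes Mxi1, an antagonist of MYC, was highest at 0.56, Bnip3l lowest at 0.03, and Higd1a, the most abundant, was at 0.26. Of the matrix genes P4ha3 was lowest at -0.53, with an interval that included 0, and Col4a1, the most abundant, was at -0.02. Rora led the transcription group at 0.70, with Nfil3 lowest at -0.22 and Jmjd6 most abundant at 0.10. Cxcr4 was the lowest vascular gene at -0.23. In the glycolysis group Gapdh, the most abundant, was at 0.11 and Pfkfb4, the lowest, at -0.20 with an interval that included 0. Car9, a carbonic anhydrase, was the one gene called lower, at -0.75 on 39 SP3-null and 70 wild-type UMIs.

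**Figure D5:**
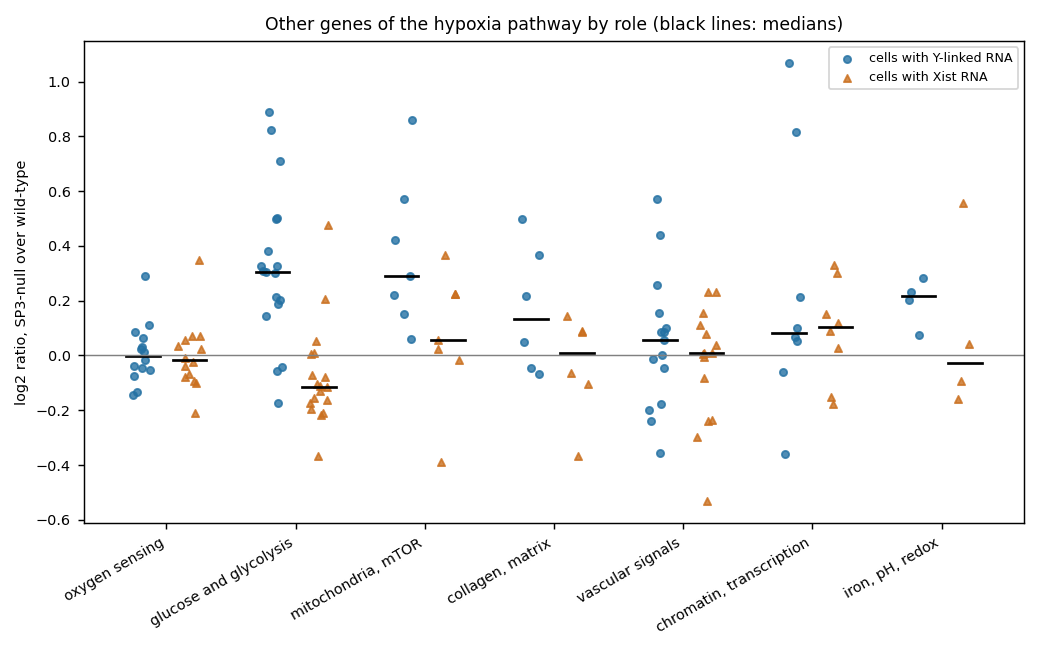
Log2 ratio of SP3-null over wild-type level for the other genes of the hypoxia pathway by role, a circle per gene in cells with Y-linked RNA and a triangle per gene in cells with Xist RNA, with black lines at the medians. With Y-linked RNA 15 of 18 glycolysis genes lie above 0, and with Xist RNA 5 of 18.

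Cells with a Slc2a3 UMI also carried more RNA of the pathway. In the SP3-null library 28 of 73 pathway genes were higher in these cells and 1 was lower, with a median log2 difference of 0.27, beside 3.26% higher and 2.48% lower of all genes. In the wild-type library 10 of 74 were higher and 2 were lower, with a median of 0.14, beside 3.1% higher and 2.32% lower of all genes. The medians over all genes were 0.006 and 0.02. These pathway counts were taken over each whole library and were not matched for class, depth or sex-linked RNA. In the SP3-null library the cells with a Slc2a3 UMI had more Y-linked and less Xist RNA. The part of this in the counts was not tested. Pgk1 was among the higher ones in both, at 552 CPM with and 400 CPM without a Slc2a3 UMI in the SP3-null library and 474 CPM with and 375 CPM without in the wild-type library.

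Across classes the 10 genes did not move as a block. A step between classes was called where it was at least 1.5-fold the same way in both libraries, with both intervals on one side of 0. From AE to conflux AE Epas1 was up and Adm was down, 2 of 10 genes, where 10.9% of all genes were called in either direction. From conflux AE to pre-HE Ankrd37 alone was down, 1 of 7 testable genes, beside 6.58% of all genes. From pre-HE to HE Slc2a3 was up, by 1.02 in the SP3-null and 1.49 in the wild-type library, and Epas1 was down, 2 of 7, beside 17.5%. From HE to IAC Egln3 was up and Epas1 was down, 2 of 7, beside 13.4%. Apart from Epas1, no gene was called in more than 1 of these 4 steps, and with 7 to 10 genes tested a count of 1 or 2 is near the background share.

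In VE, Slc2a3, Adm and Epas1 were lower than in AE, 3 of 10 beside 8.64% of all genes, and Adm fell furthest, by -1.92 in the SP3-null and -2.16 in the wild-type library. In Wnt-high AE Adm was higher than in Wnt-low AE and Slc2a3, Ndrg1 and Egln3 were lower, 4 of 10 beside 7.04%. In Wnt-high VE Bnip3, Ndrg1, Egln3 and Ankrd37 were lower than in Wnt-low VE, 4 of 10 beside 4.52%. Egln3 and Ndrg1 were thus lower in the Wnt-high class of both vessel types, in both libraries, while Adm took the opposite direction in arteries. The classes had been assigned from the expression of the same cells, so these steps are a description.

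Likeness of level across the 18 sums of class and library was computed against 9728 genes as Pearson's r of log2(CPM + 1); the sums share libraries and classes, and r is a description with no test. Epas1 was most like Sgce (r = 0.988), Col4a2 (0.986) and Ece1 (0.985). Bnip3 was most like the glycolytic genes Tpi1 (0.903) and Ldha (0.840) and like Gars (0.839). The nearest genes were Upf2 for Slc2a3 (0.852), Dcbld1 for Adm (0.905), Stx2 for P4ha1 (0.960), Fam171a1 for P4ha2 (0.863), Traf3ip2 for Ndrg1 (0.934), Mrps28 for Egln3 (0.835), Dynlrb1 for Ankrd37 (0.904) and Dynlt1f for Hif1a (0.886). Among the 10 genes themselves r was highest between P4ha1 and Ankrd37 (0.818) and between P4ha1 and Ndrg1 (0.807). Slc2a3 and Adm, which were found together in single cells, were not alike across classes (r = -0.22).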

How the data were processed

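Single-cell UMI counts came from 1 SP3-null and 1 wild-type library. Per the labels, reads were processed by the authors with Cell Ranger against mm10 (GRCm38), whose program version the sources used here do not give. Deposited by the authors were whole-number counts per gene and cell (8405 cells, 27514 genes), with a cell table holding the library, class, total counts and the mitochondrial share of each cell as a fraction. Classes were taken as deposited; the table holds more arterial cells than the study lists. Every cell sum was taken from the matrix, which fell 0 to 197 UMIs per cell (0.145% in all) under the deposited totals.

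Counts were summed per class and library and divided by the sum of all genes. Intervals are exact Poisson (CPM), exact binomial (shares) and exact conditional binomial (log2 ratios). Calls were made over all genes with at least 50 UMIs, and only the members and the pathway list are printed. No doublet caller was run; leaving out the 5% of cells with most UMIs was an alternative. The scaling factors came from edgeR 4.0.16 and DESeq2 1.42.0 in R 4.3.3; the rest was computed in Python 3.11.15 with numpy 2.4.6, pandas 2.3.3, scipy 1.17.1 and matplotlib 3.10.9. The scripts were tested on simulated data.

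The members and lists were chosen with earlier results of these data known. Named were all members, in each pathway group the gene with most UMIs, the highest and the lowest ratio, and for each member the genes most like it; Ldha, Pgk1 and Slc2a1 were named after their values were seen. 1 gene that this rule names is not reported here. The split by Y-linked and Xist RNA and the split by a Slc2a3 UMI were chosen after seeing the data. Promoter windows and coordinates are from RefSeq, GRCm38.p6.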

Additional observations from a re-analysis of the deposited data

Results flagged for a closer look

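Bnip3 moved in opposite directions in the 2 sets of summed endothelial cells: its log2 ratio of SP3-null over wild-type was 0.79 (0.57 to 1.02) in cells with Y-linked RNA and -0.47 (-0.76 to -0.19) in cells with Xist RNA. The difference between the sets was not tested, since each genotype is 1 library. The split was made after seeing the data, and sex and embryo cannot be told apart.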

How the results depend on the processing

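No paired analysis was possible because each genotype is 1 library. The 10 log2 ratios were recomputed under 198 combinations of gene and setting: 164 moved by less than their counting interval, 31 moved further and 3 reversed. A change of the UMI minimum (20 or 200) or of the fold limit (1.1 or 1.5) cannot move a ratio, and those combinations are among the 164. Only called genes could count as reversed. Of the uncalled genes, P4ha1 kept its sign in 20 of 20 settings, Hif1a in 19 of 20, Ndrg1 in 18 of 19 and Epas1 in 16 of 20. The reversals came in cells with Xist RNA only, at -0.013 for Slc2a3, -0.47 for Bnip3 and -0.31 for Egln3; the pathway median was -0.0015 there. In these cells 1 member was higher and 2 were lower, and 4 pathway genes were higher and 4 lower. With Y-linked RNA only, 17 pathway genes were higher and 2 lower. A 1.5-fold limit left 2 members and 2 pathway genes higher, and a 1.1-fold limit gave 25 pathway genes higher and 6 lower. The 1 pathway gene called lower became 0 at a minimum of 200 UMIs, in AE alone and in VE alone, 2 with cells or classes weighted alike, and 3 after thinning to 5000 UMIs. Calls with cells or classes weighted alike were made without an interval, which every other setting required, so those counts follow a looser rule. Without cells carrying a macrophage or neural marker, which removed 1893 of 2401 SP3-null and 2114 of 2639 wild-type cells, 0 members were called lower. Most UMIs of the markers used there were those of Nes and Stmn2. In VE alone Egln3 was not called. TMM and DESeq2 scaling gave the same 5 members higher and 1 lower. Among class steps, thinning, which removes most UMIs, left 0 members called from conflux AE to pre-HE, 1 from pre-HE to HE, 0 from HE to IAC and 1 between Wnt-high and Wnt-low AE. A 2-fold limit left 0 from conflux AE to pre-HE and 2 between Wnt-high and Wnt-low VE. The causes of the other changes were not tested. Depth limits the rare genes: P4ha2 and Ndrg1 had few UMIs per class, and classes such as HE could not be split by sex-linked RNA.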
